A study of Mus musculus with 4 samples.

Results

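The receptor chains described here serve cytokines of the common gamma family, such as interleukin-2, interleukin-4 and interleukin-7, and interleukin-10. The list, chosen by gene family, named 10 chains, and 9 of them had a probe set with exactly 1 gene symbol in the platform annotation: Il2ra, Il2rb, Il15ra, Il4ra, Il7r, Il9r, Il21r, Il10ra and Il10rb. They were read among 30142 genes measured. Il2rg, the common gamma chain, is not analysed here. Each of the 9 chains had 1 probe set, so choosing the probe set with the highest mean over the 4 arrays had no effect on them. The family itself was selected on the differences between combination and vehicle arrays seen in earlier results of these data. Those differences are therefore given as a description.

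The cells were lineage-negative, c-Kit-positive (LK) cells of NOD mice, a strain that develops autoimmune diabetes. This bone marrow fraction is rich in hematopoietic stem and progenitor cells, and the labels do not give the age, the sex or the number of animals. All samples were held in StemSpan medium for 4 h. The 2 vehicle samples received DMSO, and the 2 combination samples received 10 µM dmPGE2, a stable analog of prostaglandin E2, together with 10 µM dexamethasone, a synthetic glucocorticoid. No array carried either drug alone. The duplicates are called biological in the series' design text, without the source of each. P-values therefore measure only the spread between these arrays, which may be technical.

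Receptors of the common gamma family are built from a private chain that recognises the cytokine and shared chains that carry the signal. The intracellular parts bind JAK kinases, which phosphorylate STAT factors, mainly STAT5 for interleukin-2, interleukin-7 and interleukin-15, STAT6 for interleukin-4 and STAT3 for interleukin-21 and interleukin-10. In the bone marrow, the interleukin-7 receptor marks lymphoid progenitors, whereas CD25, the product of Il2ra, is best known from activated and regulatory T cells and early thymic and B lineage stages.

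The sequences just upstream of Il2ra, Il7r and Il4ra are shown because these chains had the largest differences between the groups, 1 downward and 2 upward. They come from RefSeq (GRCm38.p6), stop where the gene's own span begins, and are written 5′ to 3′ on the gene's strand. Capitals mark matches to the motifs searched. For Il2ra the stretch is chr2:11642542-11642791, plus strand, for Il7r chr15:9529942-9530126, minus strand, and for Il4ra chr7:125552021-125552270, plus strand.
Il2ra: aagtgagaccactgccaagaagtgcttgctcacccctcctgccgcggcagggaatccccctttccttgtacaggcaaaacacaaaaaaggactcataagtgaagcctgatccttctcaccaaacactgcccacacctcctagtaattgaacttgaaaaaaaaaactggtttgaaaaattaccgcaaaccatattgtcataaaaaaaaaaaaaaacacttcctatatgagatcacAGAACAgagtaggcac
Il7r: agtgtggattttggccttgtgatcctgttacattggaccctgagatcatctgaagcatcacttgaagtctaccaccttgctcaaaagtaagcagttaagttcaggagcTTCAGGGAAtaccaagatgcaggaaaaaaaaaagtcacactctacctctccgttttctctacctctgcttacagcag
Il4ra: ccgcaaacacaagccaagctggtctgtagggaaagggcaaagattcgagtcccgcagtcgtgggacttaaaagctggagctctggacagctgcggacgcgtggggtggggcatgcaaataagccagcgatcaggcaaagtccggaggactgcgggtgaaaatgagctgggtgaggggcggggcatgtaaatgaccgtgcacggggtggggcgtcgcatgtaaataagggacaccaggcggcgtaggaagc

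Both strands of the 250 bases before each annotated start were searched for letters bound by factors downstream of the drugs or the receptors. The glucocorticoid receptor half-site AGAACA stood before Il2ra, 11 to 16 bases from its start, and before Il2rg, and was present in 16.1% of all 32851 promoter windows. TTCNNNGAA, a core that STAT factors bind, stood once before the Il7r start searched, 134 to 142 bases from it. That start lies 65 bases inside the gene's own span, so the match is nearer to the end of the printed stretch. The core was present in 7.02% of all windows. The cAMP response palindrome TGACGTCA (1.55% of windows) was present before none of the 7 chains in the promoter table, Il2rg included. Among these chains the cAMP half-site TGACG, which the full palindrome contains, was present only in an Il15ra window. That match lay inside the gene's own span, because the annotated start searched there also lies inside it. Of all windows, 17.8% held this half-site. The Il4ra window held none of the 4 motifs, and other spacings between TTC and GAA were not searched. These are matches of letters and not binding sites.

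Il2ra was much lower with the drugs, Il7r and Il4ra were higher, and the other 6 chains differed by 0.60 or less on the log2 scale. Signals are log2 values after RMA, which can be compared between arrays for a gene but not between genes. In limma, which was fitted to all 65956 features, 0 of the 9 chains had an adjusted p under 0.05, against 0.00303% of all features and 0.00332% of all genes. At an unadjusted p under 0.05 in limma, Il7r and Il10ra were higher and Il2ra lower, where 2.66% and 2.65% of all genes were higher and lower. The median difference over the 9 chains was 0.11, and over all genes it was 0.01.

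**Figure D1:**
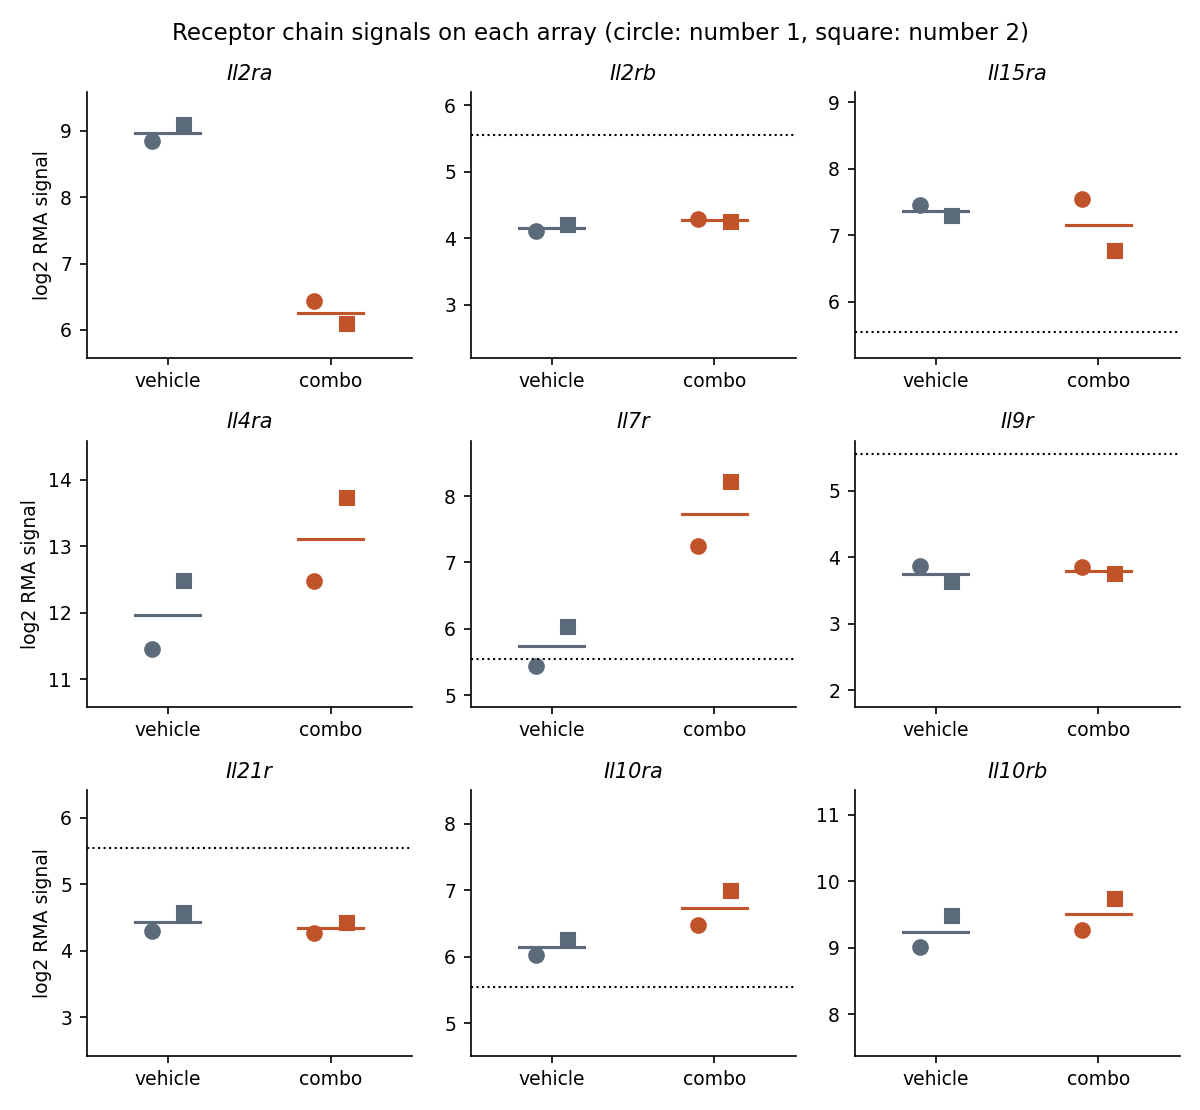
Log2 RMA signal of each receptor chain (y axis, 4 log2 units in every panel) on the vehicle and combination ("combo") arrays; circles are arrays numbered 1, squares arrays numbered 2, bars group means, and the dotted line the highest background probe set (5.55). The groups stand far apart for Il2ra and Il7r, and Il4ra is higher on array 2 than on array 1 in both groups.

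Among the chains that bind interleukin-2 and interleukin-15, Il2ra was above background and clearly separated between the groups. Il2ra, the alpha chain that raises the affinity of the receptor for interleukin-2, was at 8.84 and 9.08 on the vehicle arrays and at 6.44 and 6.08 on the combination arrays. Both combination arrays thus lay below both vehicle arrays, with a gap of 2.40 between the groups. The means were 8.96 ± 0.17 and 6.26 ± 0.25 (SD, n = 2), a 6.50-fold lower signal with the drugs. The log2 difference was -2.70 (SE 0.19, 95% interval -3.20 to -2.20), with an adjusted p of 0.14 in limma. Only 4 of the 30142 genes had a more negative difference.

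Il2rb, the signalling chain shared by interleukin-2 and interleukin-15, was at 4.11 and 4.21 with vehicle and at 4.29 and 4.25 with the combination. All of these values lay within the range of the background probe sets, which reached 5.55, so Il2rb was not above background in either group, although its arrays did not overlap (difference 0.11). Il15ra, which presents interleukin-15 to cells that carry the beta and gamma chains, was at 7.45 and 7.29 with vehicle and at 7.55 and 6.76 with the combination. The groups overlapped, and the difference of -0.22 (95% interval -0.99 to 0.56) was smaller than the SD of the combination arrays, 0.56. Il2ra and Il15ra lie close together on chromosome 2 with 2 predicted genes between them in RefSeq, so a large and a small difference stood next to each other.

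Il4ra had a high signal on every array and a difference that its replicates did not separate. This chain binds interleukin-4 and, with its partner Il13ra1, interleukin-13. Il4ra was at 11.45 and 12.49 with vehicle and at 12.49 and 13.73 with the combination. The higher vehicle array and the lower combination array had the same value, and array 2 exceeded array 1 by 1.04 with vehicle and by 1.24 with the combination. The means were 11.97 ± 0.73 and 13.11 ± 0.88 (SD, n = 2). The log2 difference was 1.14 (SE 0.55, 95% interval -0.31 to 2.58, limma adjusted p = 0.93), about as large as the step between the arrays of 1 group. It lay between 0.52 and 1.76 when any 1 array was left out. With the array number as a block, which the labels do not state to be a pairing, limma's adjusted p was 0.19. Il21r, the next gene on chromosome 7 in RefSeq, encodes the interleukin-21 receptor chain and was at 4.29 and 4.57 with vehicle and at 4.27 and 4.42 with the combination, within the background range throughout.

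Il7r showed the largest upward difference. It encodes the alpha chain that binds interleukin-7 and, together with Crlf2, thymic stromal lymphopoietin. Il7r was at 5.44 and 6.03 with vehicle and at 7.24 and 8.21 with the combination. All combination values exceeded all vehicle values, by at least 1.22, while vehicle array 1 lay within the background range. The means were 5.74 ± 0.41 and 7.73 ± 0.69 (SD, n = 2), a 3.98-fold higher signal. The log2 difference was 1.99 (SE 0.39, 95% interval 0.95 to 3.03), with an adjusted p of 0.58 in limma, and 65 genes had a larger one. Compression of low RMA signals towards background can shrink such a fold, and selection of the family on its differences can enlarge it. Il9r, the interleukin-9 receptor chain known from mast cells, was at 3.87 and 3.63 with vehicle and at 3.85 and 3.75 with the combination, within the background range on all arrays.

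The 2 chains of the interleukin-10 receptor differed upward by smaller amounts. Il10ra, the ligand-binding chain, was at 6.03 and 6.25 with vehicle and at 6.48 and 6.99 with the combination. Its groups did not overlap but stood only 0.23 apart, which is less than the step of 0.51 between the combination arrays. The log2 difference was 0.60 (SE 0.22, 95% interval 0.01 to 1.18, limma adjusted p = 0.89), a 1.51-fold higher signal, and it lay between 0.34 and 0.85 when any 1 array was left out. Il10rb, the second chain, which receptors for interleukin-22 and lambda interferons also use, was at 9.01 and 9.47 with vehicle and at 9.27 and 9.74 with the combination. Those groups overlapped, and the difference of 0.27 (95% interval -0.39 to 0.93) was below the SD of 0.33 in each group and lay between 0.033 and 0.50 with 1 array left out.

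**Figure D2:**
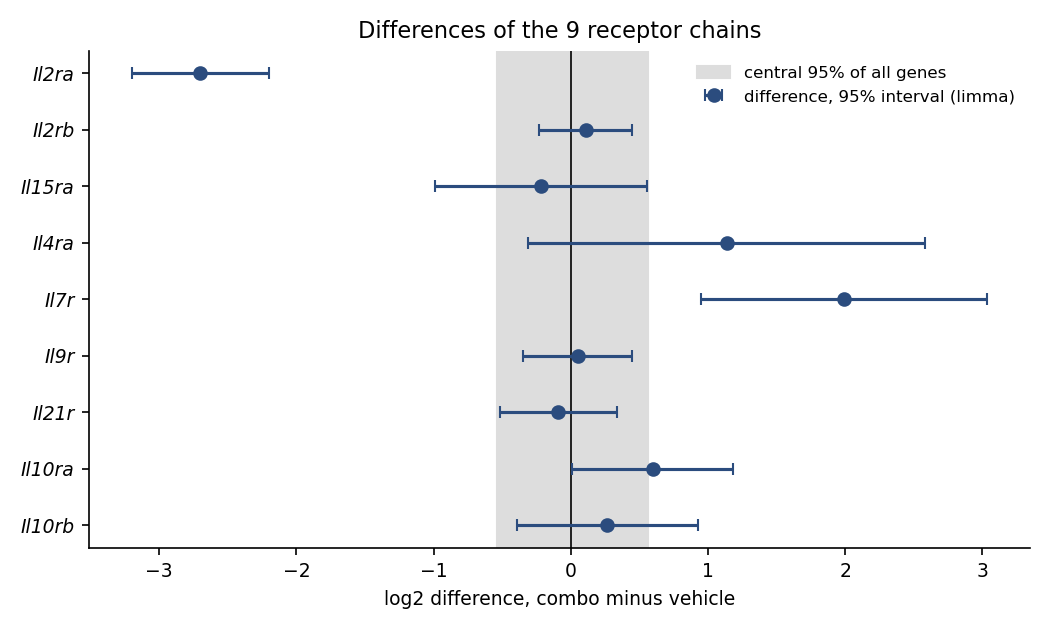
Log2 difference, combination minus vehicle, of the 9 receptor chains (points) with limma's 95% interval (bars); the grey band spans the central 95% of all genes, from -0.54 to 0.57. Il2ra lies far to the left of the band, Il7r, Il4ra and Il10ra lie to its right, and the other 5 lie inside it.

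Counted over the list, 3 chains had both combination arrays above both vehicle arrays (Il7r, Il10ra and, within background, Il2rb), where 19.7% of all genes did. One chain, Il2ra, had both below, where 15.4% of all genes did. Among genes with a mean above the background range these shares were 12.7% and 22.8%. The combined count of 4, where 35.1% of all genes did not overlap either way, became 7 without vehicle array 2 and 7 without combination array 1. With those arrays left out, 69.1% and 70.3% of all genes did not overlap. A difference of at least 1 on the log2 scale was present upward in Il7r and Il4ra and downward in Il2ra, against 0.886% and 0.425% of all genes. In 5 chains (Il4ra, Il7r, Il21r, Il10ra and Il10rb) array 2 exceeded array 1 within both groups, as in 30.1% of all genes.

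The genes around these receptors were read from lists of ligands, partner chains, kinases, STAT factors, feedback inhibitors and responsive genes. Of 52 genes measured, 0 passed limma's threshold over all features, which 0.00303% of all features passed. In limma, 5 had an unadjusted p under 0.05 and a higher signal with the drugs, and 2 had a lower one. Of all genes, 2.66% and 2.65% did. The medians of the 6 lists lay between -0.09 and 0.08.

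The cytokines themselves were dim, and 6 of 9 ligand genes lay within the background range on every array. Most genes were dim as well, as 12615 of all 30142 had a mean above that range. Il4 had the largest difference among them, at 5.15 and 5.58 with vehicle and 4.82 and 4.97 with the combination (log2 difference -0.47, limma adjusted p = 0.90). Il15 and Il21 differed by 0.23 and 0.15. Of 8 partner receptor chains, 7 lay within the background range on every array, Crlf2 among them. The largest differences in that list were 0.27 for Il20ra, 0.11 for Il20rb and -0.11 for Il13ra1, the partner of Il4ra.

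Among the JAK kinases, Jak1 differed by 0.01 and was at 12.29 and 12.05 with vehicle and 12.22 and 12.14 with the combination. Jak2 was at 10.48 and 10.55 against 10.84 and 11.26, and Tyk2, which serves the interleukin-10 receptor, differed by -0.27. Jak3, the kinase bound by the common gamma chain, is not analysed here. Of 6 STAT factors read, Stat4 had the largest difference, from 6.72 and 6.57 with vehicle to 7.71 and 8.14 with the combination. That is 1.28 on the log2 scale (SE 0.19, limma adjusted p = 0.45), and its groups did not overlap. Stat5a and Stat5b, the main mediators of interleukin-2 and interleukin-7, differed by -0.29 and -0.17, Stat3 by -0.01 and Stat6 by -0.02. For Stat2 the difference was -0.41, but its arrays numbered 1 (12.19 and 11.55) lay far above those numbered 2 (8.995 and 8.82).

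Feedback inhibitors held the largest difference around the receptors. Ptpn1 encodes PTP1B, a phosphatase that acts on JAK2 and TYK2, and it was at 8.96 and 9.60 with vehicle and 11.44 and 11.995 with the combination. Its log2 difference was 2.44 (SE 0.30, limma adjusted p = 0.34). Ptpn6, which encodes the phosphatase SHP-1, was in the opposite direction, at 10.70 and 11.21 against 9.71 and 10.23 (-0.98, limma adjusted p = 0.80). The groups of both genes were separate. Socs1, an inhibitor of JAK kinases, differed by 0.72, with both vehicle arrays (5.01 and 5.08) within the background range. Cish, a classic STAT5 target and inhibitor, was at 10.49 and 11.08 with vehicle and 10.24 and 11.41 with the combination, with overlapping groups.

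Of 14 genes known to respond to STAT5 or STAT6, 9 had a higher and 5 a lower mean with the drugs. Of these, 6 of the higher ones lay within the background range on every array, and among the other 8 genes 3 were higher and 5 lower. Pim2, a survival kinase, differed by -1.10, with vehicle arrays at 6.72 and 8.04 and combination arrays at 6.20 and 6.37. Myc differed by -0.77 and Retnla, a STAT6 target in macrophages, by 0.87, the latter within the background range on every array. Bcl2, a survival gene that interleukin-7 maintains in lymphoid cells, differed by -0.04.

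**Figure D3:**
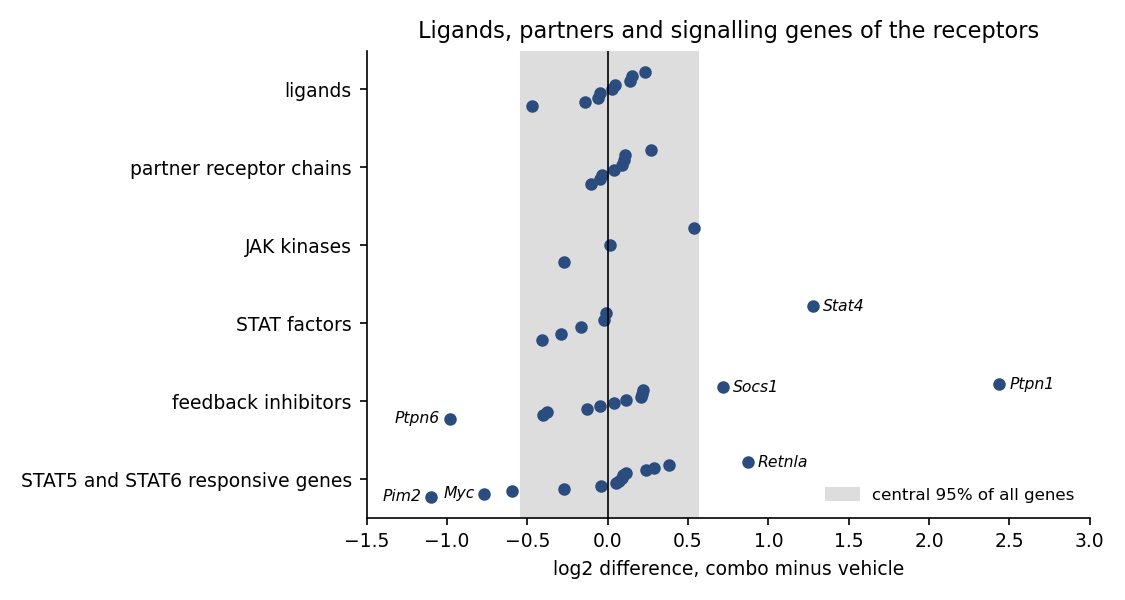
Log2 difference, combination minus vehicle, of each measured gene (points) in the 6 lists around the receptors; the grey band spans the central 95% of all genes, and genes differing by 0.7 or more are named. Most points lie inside the band, with Ptpn1 and Stat4 farthest to the right and Pim2 and Ptpn6 farthest to the left.

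The genes most like Il2ra and Il7r over the 4 arrays were found among 18049 protein-coding genes, by the Euclidean distance between log2 signals centred on each gene's mean. For Il2ra these were Cd209a, a C-type lectin of dendritic cells (distance 0.49), the fatty acid elongase Elovl7 (0.55), the adaptor Stap1 (0.60), the transcription factor Irf4 (0.65) and the melanocortin receptor Mc5r (0.66). Cd209a was at 8.71 and 8.92 with vehicle and at 6.62 and 6.51 with the combination. Nearest to Il7r were the cAMP phosphodiesterase Pde8a (0.25), Fam169b (0.33), the transcription factor Klf6 (0.41), Il12a, a subunit of interleukin-12 and interleukin-35 (0.42), and Speer1 (0.44). Pde8a was at 6.84 and 7.45 with vehicle and at 8.39 and 9.39 with the combination, array 2 above array 1 in both groups, as for Il7r. With 4 arrays, likeness mostly restates a similar difference between the groups.

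**Figure D4:**
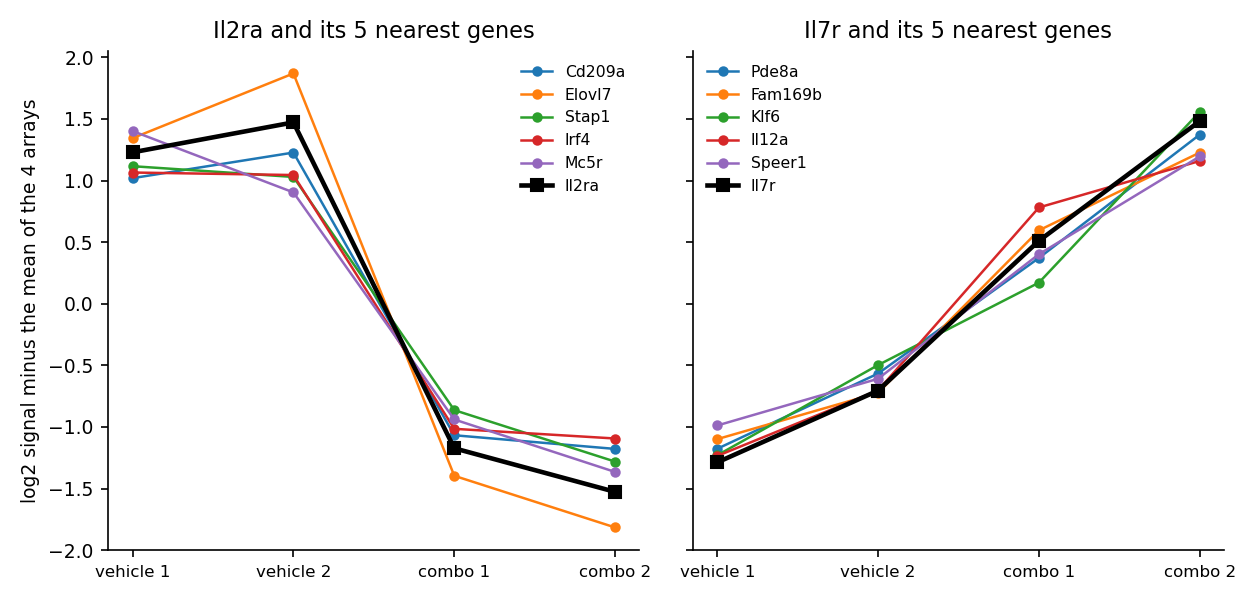
Log2 signal minus the gene's mean over the 4 arrays (y axis) on each array (x axis) for Il2ra and Il7r (black squares) and the 5 genes nearest to each (coloured circles); lines only join points of a gene. The Il2ra set is lower on both combination arrays than on the vehicle arrays, and the Il7r set also differs between arrays 1 and 2 of each group.

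Markers of the labelled cells were present. Kit was at 10.18 and 10.32 with vehicle and 10.51 and 9.62 with the combination, and all 7 measured progenitor markers lay above the background range on every array. All 7 also had a lower mean with the drugs, with log2 differences from -0.51 for Myb to -0.07 for Elane. The log2 of their summed linear signal was 18.88 to 19.10 with vehicle and 18.71 to 18.97 with the combination, so the groups overlapped. That sum rests mostly on Mpo and Elane, the brightest of the list. Myb and Gata2 were lower on both combination arrays than on both vehicle arrays, as 15.4% of all genes were. In bulk RNA, fewer cells of a type and less RNA per cell cannot be told apart. Markers of cells that carry these receptors were therefore read beside the chains, as the log2 of the summed linear signal of each list. T cell markers lay within the background range on every array in 6 of 7 cases, Cd3e and Cd3d included. The exception was the adaptor Lat (-1.27), which mast cells and platelets also express. It carried the list from 10.38 to 10.41 with vehicle down to 9.06 to 9.56 with the combination. All 7 natural killer and innate lymphoid markers were within the background range (sums 7.09 to 7.22 and 7.13 to 7.24).

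Early lymphoid markers without Il7r itself summed to 7.48 to 8.42 with vehicle and 7.86 to 8.26 with the combination, so these groups overlapped where those of Il7r did not. Dntt, Rag2 and Ly6d were within the background range on all arrays. Flt3 differed by -0.23 and Notch1, the brightest of the list without Il7r, by 0.40, with overlapping groups in both. B cell markers summed to 7.72 to 8.23 and 7.82 to 7.87, with 4 of 6 within the background range.

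Dendritic cell markers summed to 9.34 to 9.63 with vehicle and 8.37 to 8.49 with the combination, lower as Il2ra was. Cd209a was the brightest of them, 4 of 7 (Itgax, Zbtb46, Xcr1 and Clec9a) were within the background range on every array, and Flt3 overlapped between the groups. Siglech, also above background, was slightly higher with the drugs (0.13), so the lower sum rests on Cd209a. Monocyte and macrophage markers lay on both sides, with log2 differences of -0.91 for Csf1r, -1.77 for Ccr2, -0.56 for Adgre1 and 2.43 for Cd14. Fcgr1 differed by -0.72 and Ms4a7, within the background range on every array, by 0.70. The sums, 11.65 to 12.20 and 11.88 to 12.13, rest mostly on Ly6c2, the brightest of the list, which differed by 0.11. No marker passed limma's threshold over all features, and the part of these cells in the Il2ra difference was not tested. Mast cell and basophil markers, whose cells can carry Il2ra, Il4ra and Il9r, summed to 15.43 to 15.94 and 15.25 to 15.54. Cpa3 and Mcpt8 differed by -0.32 and -0.41. Hdc, the histamine-forming enzyme, had the largest difference of that list, at 8.26 and 9.10 with vehicle and 10.11 and 10.66 with the combination (1.71).

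As a sum, neutrophil markers differed more between the array numbers than between the groups, while Mmp8 and Ly6g of that list differed by 2.43 and -0.33 between the groups. They summed to 14.26 to 15.96 with vehicle and 14.65 to 15.98 with the combination. S100a8 was at 14.74 and 13.45 with vehicle and at 15.02 and 13.93 with the combination. Camp, a granule gene, was at 13.51 and 7.63 with vehicle and at 12.80 and 8.41 with the combination. Il4ra, Il7r, Il10ra and Il10rb were higher on the arrays numbered 2, where S100a8 and Camp were lower. Mpo and Elane of the progenitor list were instead higher on array 2 in both groups. Mpo was at 17.86 and 18.13 with vehicle and at 17.63 and 17.88 with the combination. The part of neutrophil precursors in the step of the chains was not tested. Erythroid markers, 4 of 7 listed being measured, summed to 11.88 to 12.45 and 11.55 to 11.76, lower on both combination arrays. All 4 means were lower, but Klf1, Epor and Alas2 overlapped between the groups, and only Tfrc (-0.79) did not. Megakaryocyte markers summed to 12.32 to 12.85 and 12.64 to 13.17, with Pf4 the brightest. In that list the platelet chemokine gene Ppbp was at 4.95 and 4.33 with vehicle and at 9.80 and 10.52 with the combination, a log2 difference of 5.52.

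**Figure D5:**
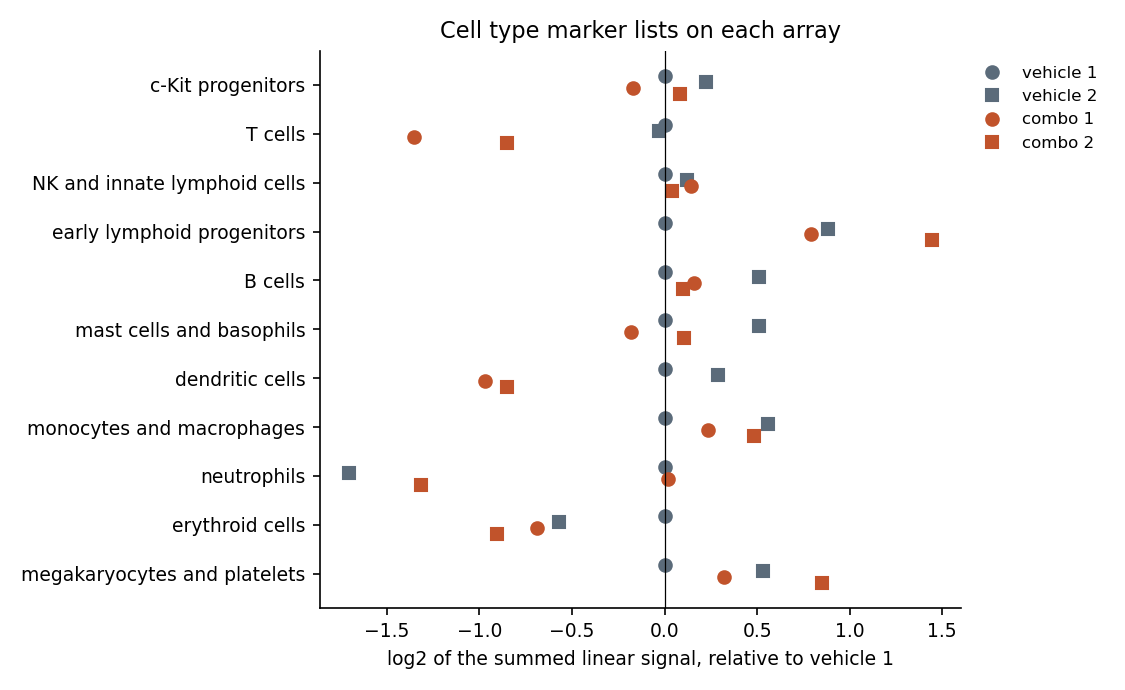
Log2 of the summed linear signal of each marker list relative to vehicle array 1 (x axis) on each array; colours give the group and shapes the array number. The dendritic, T cell and erythroid lists are lower on both combination arrays, the neutrophil list is lower on both arrays numbered 2, and the early lymphoid list here includes Il7r.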

How the data were processed

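Each of the 4 samples was hybridised to 1 Affymetrix array after amplification of 10 ng total RNA, per the labels. The authors deposited RMA values on the log2 scale, made in Transcriptome Analysis Console according to the submitters' processing notes, and the versions and the genome build are unstated there. RMA brings all arrays to 1 distribution, so shifts of total RNA per cell are hidden, and it compresses dim signals. Array medians ran from 4.36 to 4.44. Array means of the 23 probe sets for background were 3.07 to 3.16, and single ones reached 5.55, the limit of what is called the background range. Precision is limited by 2 arrays per group.

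Of 72688 rows, 6732 controls were dropped. Among the 65956 features left, 30604 had 1 symbol, 2146 several and 33206 none listed, and 827 symbols were updated by Entrez identifier. The brightest feature per gene was used. Limma 3.58.1 in R 4.3.3 (lmFit and eBayes, two-sided, group as the only term) was run on all features with Benjamini-Hochberg adjustment and a threshold of 0.05, with 2 residual and 2.59 prior degrees of freedom. The fit was also run on simulated data with errors independent between arrays. Those data held no shared step between array numbers, so the run does not cover the steps seen here.

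The receptor chains and all lists were chosen with earlier results of these data known. The naming rule took all chains, all JAK kinases, the 3 largest differences per other list and the first 2 genes of each marker list. It also took the 5 genes nearest to each of the 2 chains that differed most. Some of those first markers, such as the natural killer ones, were left out. Crlf2, Stat3, Stat5b, Stat6, Cish, Bcl2 and further markers were named beyond the rule, after their values were seen. The alternatives were a replicate block, an intensity trend, a robust prior, 2 filters on dim features, a further quantile normalization, centring, control rows kept, probe set means and leaving out each array.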

Additional observations from a re-analysis of the deposited data

How the results depend on the processing

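Under all 13 alternatives, 0 receptor chains and 0 genes of the lists around them passed limma's threshold over all features. Of 114 differences of single chains recomputed, 110 kept their direction. Those that turned were Il9r, at -0.0037 after centring the arrays and -0.074 without vehicle array 2 (-0.074 to 0.17 over the arrays left out), Il15ra, at 0.18 without combination array 2 (-0.61 to 0.18), and Il21r, at 0.047 without vehicle array 2 (-0.23 to 0.047). Il2ra stayed between -2.88 and -2.52, with limma's adjusted p between 0.084 and 0.91, and Il7r between 1.51 and 2.48. The replicate numbers are not stated to pair the samples. With the replicate number as a block, 19 features passed in limma against 2. The adjusted p was then 0.084 for Il2ra, 0.096 for Il7r, 0.19 for Il4ra and 0.46 or more for the other chains. The median over the chains was 0.11 as reported and 0.43 with features below the median signal left out, which removed the 3 chains within the background range. Leaving out 1 array, it lay between 0.06 and 0.16, and the count of chains whose groups did not overlap between 6 and 7, where 64.5% to 70.3% of all genes did not overlap. Signals near background limit what Il2rb, Il9r and Il21r can show.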
